A study of Aspergillus niger with 24 samples.

Results

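At labelled day 2, mycelium of an Aspergillus niger strain that expressed a lipase named TLL was compared with its wild type (WT) by RNA sequencing, gene by gene. The comparison was defined by the library labels and uses 6 of the 24 libraries of the series, 3 of each strain. Earlier results of these data were known when it was chosen. Both groups carry the background CICC2629 and grew at 28 °C on agar with potato dextrose medium, with no other treatment named. They differ by genotype, labelled wild type or TLL expressing. The sources used here do not give the copy number of the lipase gene, its promoter or whether the strain is 1 transformant. The series states its sampling times in hours but ties no hour to a labelled day. Replicates are not stated to be separate cultures, and p-values therefore reflect the spread between libraries alone, which may be technical. Unless stated otherwise, those of limma use the spread within groups over all 24 libraries.

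Aspergillus niger is a filamentous mould that feeds by secreting enzymes, and it is used as a host to make enzymes of other organisms. A secreted lipase, which splits fats and oils, passes through the endoplasmic reticulum, where it is folded, before vesicles carry it to the hyphal tip. As a colony ages on agar, growing hyphae, older hyphae and spore-forming structures come to lie side by side. In bulk RNA of such a mixture, fewer cells of a type and less RNA per cell cannot be told apart.

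The deposited table gives 11846 genes in TPM, the share of a library's transcripts assigned to a gene after correction for gene length. Its IDs are not paired with names or products, and 0 of them matched the reference table, so genes are given by ID and no pathway was tested. The introduced lipase could not be looked up, and the strain labels were therefore not checked with it. Read numbers cannot be recovered from TPM, and library depth is therefore unknown. In the 6 libraries 968 genes were listed at 0 throughout, and 9558 genes with 1 TPM or more in 3 or more of the 24 libraries were tested.

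The abundant transcripts took a smaller share of the TLL libraries than of the WT libraries at day 2. The 10 most abundant genes of each library held 11.9%, 11.0% and 10.2% of all TPM in TLL replicates 1, 2 and 3, and 13.8%, 14.2% and 14.7% in WT replicates 1, 2 and 3. The strains did not overlap, and the means were 11.0 ± 0.855% and 14.3 ± 0.452% (SD, n = 3 each; two-sided exact permutation p = 0.1, the smallest that 3 against 3 allows). Genes with a day 2 mean of over 1000 TPM held 40.5 ± 1.86% in TLL and 45.8 ± 1.60% in WT. Genes of 10 to 100 TPM held 19.0 ± 1.22% in TLL and 16.3 ± 0.639% in WT, and these shares also did not overlap (exact permutation p = 0.1 for each class, n = 3 each). The median gene accordingly stood at 12.3, 13.8 and 14.2 TPM in the TLL libraries and at 11.9, 11.5 and 10.7 TPM in the WT libraries.

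**Figure D1:**
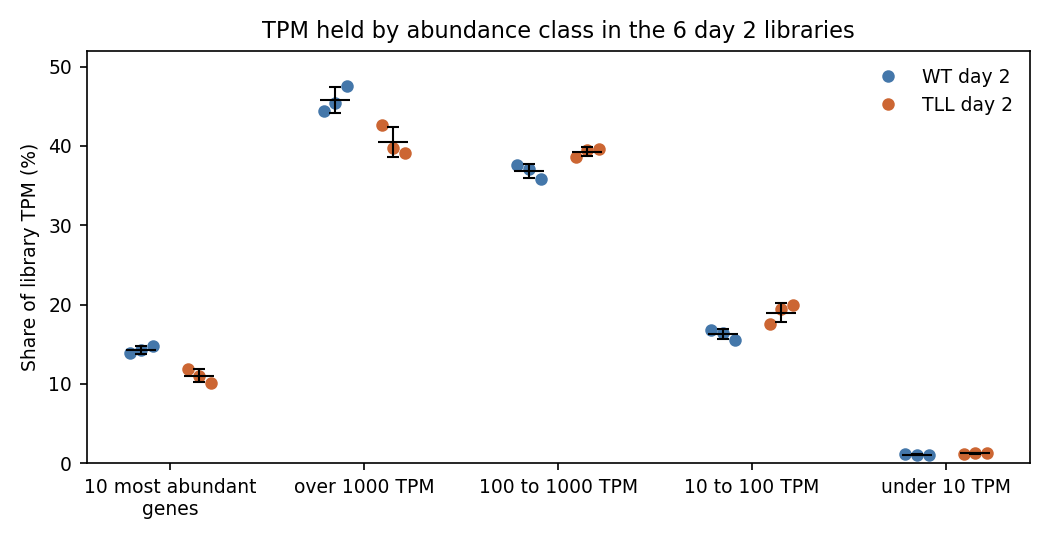
Share of library TPM, in percent, held by the 10 most abundant genes and by genes grouped by their mean TPM over the 6 day 2 libraries. Each point is a library, and bars give the mean and SD of 3 libraries; WT lies above TLL for the 10 most abundant genes and for genes over 1000 TPM, and below it in the other classes.

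Among the most abundant genes themselves no call was made. The leading 10 genes of both strains, by mean TPM at day 2, had 8 in common, and of the 12 genes in either list 0 were called higher and 0 lower by limma. The largest loss among them was of a gene at 29630, 33490 and 42490 TPM in the WT libraries and 20230, 12910 and 9395 TPM in the TLL libraries. All TLL libraries of that gene lay below all WT libraries, but the change was not called (log2 change -1.37, SE 0.47, limma adjusted p = 0.0681). Since TPM is a share, lower levels of abundant genes raise the values of others. Whether this gave the higher median TPM of the TLL libraries was not tested. Summed over all genes with a lower mean in TLL, the change came to -12.3% of the library total, of which the 10 genes with the largest losses gave -4.21%.

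In the TPM as deposited, most called genes were higher in TLL by less than 2-fold, and few were lower. limma on log2(TPM + 1), fitted to all 24 libraries with p-values adjusted over all genes tested, called 786 genes higher in TLL (8.22% of 9558) and 142 lower (1.49%) at an adjusted p under 0.05. The median log2 change was 0.77 among the genes called higher and -1.02 among those called lower, against 0.19 over all genes tested. Changes reached 2-fold in 176 of the higher and 74 of the lower genes, but in 67 and 109 after median-of-ratios scaling and in 79 and 122 after quantile normalization, so the side with more such genes depended on the scaling. They reached 4-fold in 8 and 13. In 0 genes were all libraries of a strain under 1 TPM and all libraries of the other at 10 TPM or more. With 1 TPM as the limit for both, 43 genes were on in TLL alone and 25 in WT alone, of which 26 and 12 were called.

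**Figure D2:**
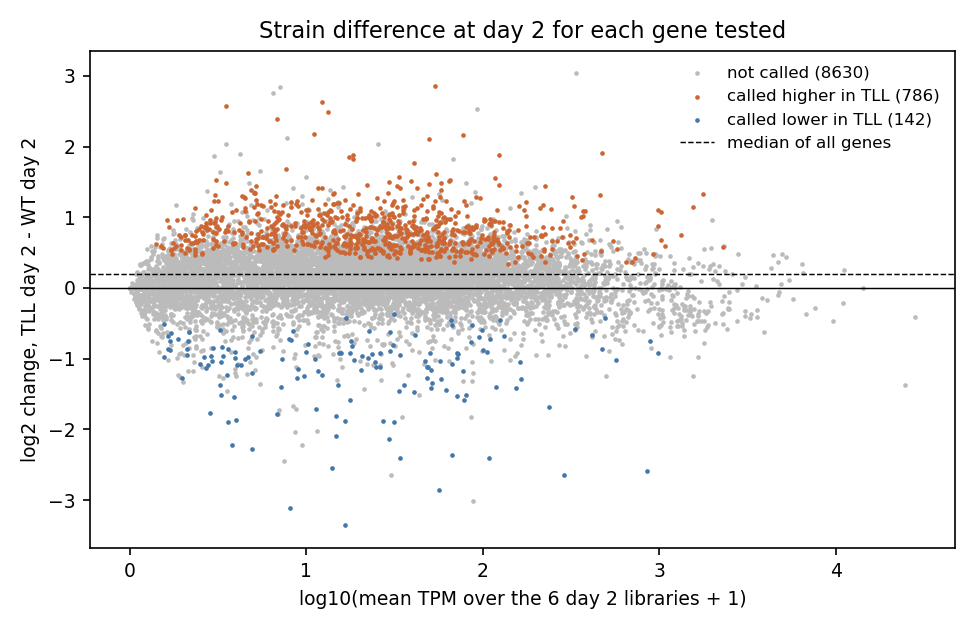
Log2 change between the strains at day 2 (TLL minus WT, on the log2(TPM + 1) scale) against log10 of the mean TPM over the 6 day 2 libraries plus 1. Each point is 1 of 9558 genes, coloured by the limma call; the dashed line marks the median of all genes at 0.19, and the 142 genes called lower reach larger changes than most of the 786 called higher.

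The excess of higher genes depended on how libraries were scaled to each other. After median-of-ratios scaling the median change over all genes was 0.02 in place of 0.19, with 318 genes called higher and 234 lower. Quantile normalization left 362 higher and 283 lower. Relative to that shift, 292 genes remained called higher and 139 remained called lower under both other scalings. Of the 170 genes over 1000 TPM, 7 were called higher and 0 lower, which became 4 and 1 with median-of-ratios scaling and 13 and 1 with quantile normalization. In this class the lower side was ahead without the 2 day 1 libraries that lay apart, with 25 higher and 51 lower, and with library weights, with 37 and 84. Of genes from 100 to 1000 TPM, 115 were higher and 19 lower, which became 38 and 39 with median-of-ratios scaling and 67 and 34 with quantile normalization. In genes of 10 to 100 TPM, 443 were higher and 68 lower. These became 175 and 134 with median-of-ratios scaling and 186 and 174 with quantile normalization, a much smaller excess on the higher side.

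**Figure D3:**
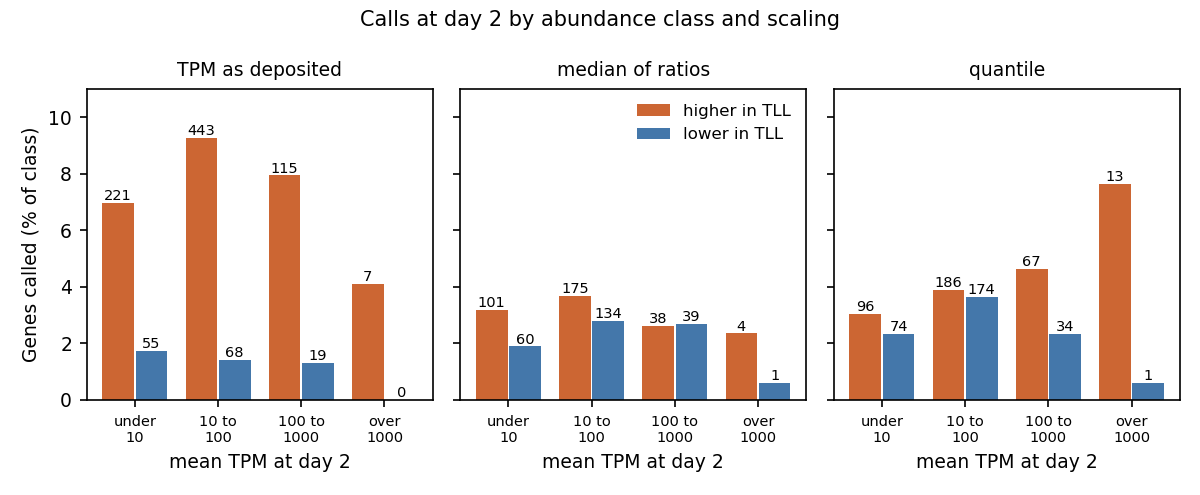
Genes called at day 2 as a percentage of the genes tested in each class of mean TPM over the 6 libraries, for TPM as deposited, after median-of-ratios scaling and after quantile normalization. Numbers above bars are genes; with the deposited TPM the higher bars exceed the lower bars in every class, and after median-of-ratios scaling the class of 100 to 1000 TPM has 38 higher and 39 lower genes.

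In 3046 genes the lowest TLL library exceeded the highest WT library (31.9% of those tested), and in 727 the strains parted the other way (7.61%). These counts are from TPM as deposited, where the median gene was higher in TLL, and were not repeated after the other scalings. Of the called genes, 768 of the 786 higher and 140 of the 142 lower ones showed no overlap. Calls and overlap were read from the same day 2 values, so this is no further support for the calls. Across the genes tested, libraries of the same strain correlated at r = 0.983 to 0.991 in WT and 0.984 to 0.990 in TLL, and libraries of different strains at 0.961 to 0.982. The libraries of different strains that were most alike were WT replicate 1 and TLL replicate 1, and the least alike were WT replicate 3 and TLL replicate 3. The 928 calls became 905, 571 and 240 without WT replicate 1, 2 or 3, and 1285, 316 and 373 without TLL replicate 1, 2 or 3. A limma fit on the 6 libraries alone shared 478 higher and 106 lower genes with the fit on all libraries. In these 2 fits, both other scalings and the 6 fits without 1 library, 144 genes were called higher each time and 46 lower.

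NRRL3_01776 showed the largest rise among genes of at least 100 TPM in the higher strain whose strains did not overlap. It stood at 87.4, 163.9 and 126.2 TPM in the TLL libraries and at 30.1, 29.3 and 20.7 TPM in the WT libraries. No overlap and a limma call were conditions of naming it, so neither is further support. The log2 change was 2.17 (SE 0.25, limma adjusted p = 4.97e-05). Its mean elsewhere ran from 2.09 ± 0.599 TPM in TLL day 1 to 54.1 ± 8.33 TPM in WT day 4 (SD, n = 3 each), so TLL day 2 was its highest group.

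NRRL3_07276 came next, with 713, 812 and 700 TPM in the TLL libraries and 198, 191 and 203 TPM in the WT libraries. It rose in TLL (log2 change 1.90, SE 0.29, limma adjusted p = 0.000445), and replicates of each strain lay close together. With a pseudocount of 0.1 TPM its adjusted p was 0.0695. TLL day 2 was again the highest group, followed by WT day 4 at 516 ± 30.9 TPM (SD, n = 3).

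NRRL3_10215 and NRRL3_10695 showed the largest falls under the same rule. NRRL3_10215 stood at 137, 79.3 and 40.01 TPM in the TLL libraries and at 425, 609 and 427 TPM in the WT libraries. It fell (log2 change -2.64, SE 0.50, limma adjusted p = 0.00293), with a wide spread within TLL. NRRL3_10695 stood at 329, 281 and 143 TPM in TLL and at 1225, 1799 and 1332 TPM in WT, and it also fell (log2 change -2.59, SE 0.47, limma adjusted p = 0.00200). In both genes TLL replicate 3 was the lowest library and WT replicate 2 the highest. Both were at their highest in WT day 3, at 2627 ± 268 and 7462 ± 1035 TPM, and at their lowest in TLL day 2 (SD, n = 3 each). In TLL day 1 replicate 3 stood apart in both, at 2436 and 7485 TPM, against 373 and 454 TPM and 1312 and 1701 TPM in replicates 1 and 2.

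**Figure D4:**
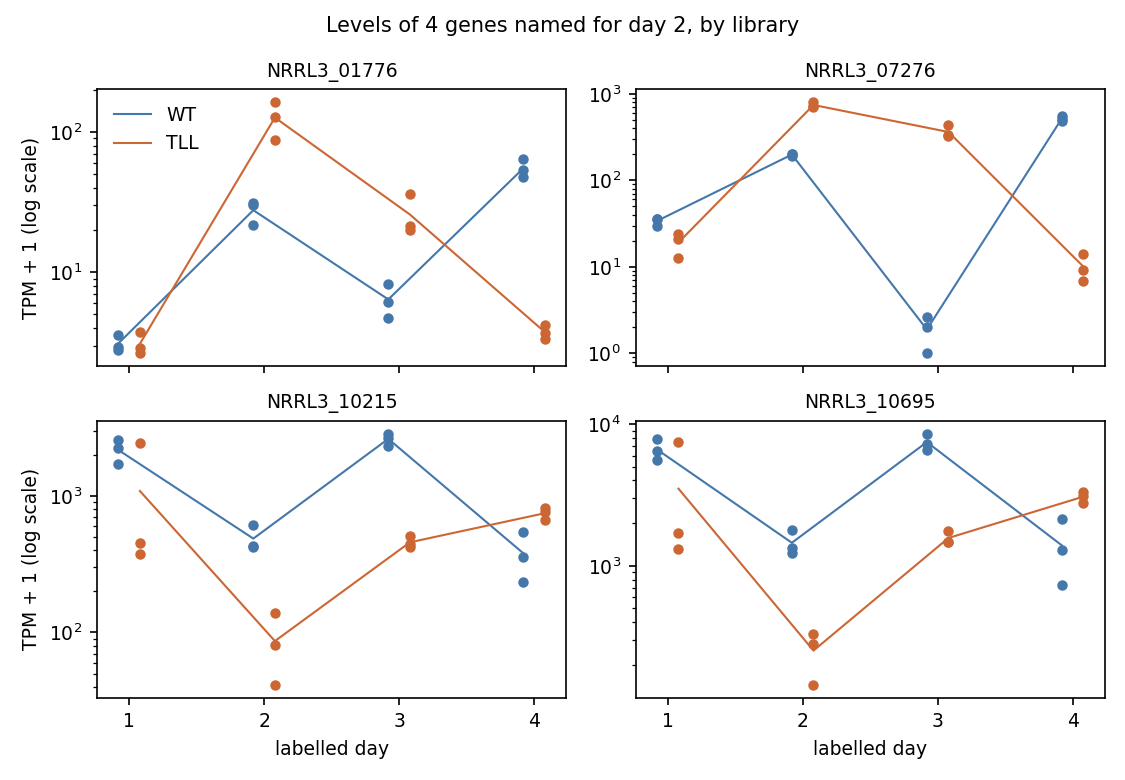
TPM plus 1 on a log scale against the labelled day for the 4 genes named for day 2; points are single libraries and lines join the means of 3 libraries for WT and TLL. At day 2 NRRL3_01776 and NRRL3_07276 are higher in all TLL libraries, NRRL3_10215 and NRRL3_10695 are lower in all of them, and the means of the strains change order between day 3 and day 4 in all 4 genes.

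Some called genes had IDs that follow each other. Of the 786 genes called higher, 160 (20.4%) had a neighbour in the ID order that was also called higher, while 13.5% of all genes tested had such a neighbour. Of the 142 genes called lower, 29 (20.4%) had a neighbour called lower, against 2.35% of all genes tested. The longest run held 8 successive IDs called higher, and a run of that kind with 3 or more IDs occurred 12 times. In this run mean levels ranged from 1.56 to 690.5 TPM in WT and from 3.41 to 1258 TPM in TLL, and the log2 changes from 0.79 to 1.45. The longest run of genes called lower held 4 IDs, with log2 changes from -1.58 to -0.92. The sources used here do not say whether successive IDs are neighbours in the genome, and no test of the runs was made.

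The strain differences of the other days, which use no day 2 library, were read for the genes called at day 2. At day 3 most genes higher at day 2 were called on the same side. Of the 786, 460 (58.5%) were called higher in TLL at day 3 and 79 (10.1%) lower, where 32.2% and 14.9% of all genes tested were called. Those 460 were 14.9% of the genes called higher at day 3. At day 4 more were called on the other side, with 124 (15.8%) higher and 358 (45.5%) lower, where 27.3% and 26.8% of all genes were called. By sign, called or not, 612 (77.9%) were higher in TLL at day 3 and 273 (34.7%) at day 4, against 60.7% and 51.4% of all genes. At day 1, 26 were called higher and 63 lower (3.31% and 8.02%, where 1.76% and 5.56% of all genes were called), and their median log2 change was -0.07, against -0.02 over all genes. Without TLL day 2 replicate 1 the day 1 counts were 62 higher and 61 lower. After quantile normalization 3.59% of the genes higher at day 2 were called higher at day 1, where 3.85% of all genes were. Of the 142 genes lower at day 2, 43 (30.3%) were also lower at day 3 and 26 (18.3%) higher, and at day 4 the counts were 25 (17.6%) lower and 48 (33.8%) higher. The side with more calls in these lists stayed the same under both other scalings, but for the genes lower at day 2 it did not hold without single day 2 libraries. At day 3 they were 19 higher and 16 lower without TLL replicate 2 and 19 higher and 17 lower without WT replicate 3, and at day 4 43 higher and 45 lower without TLL replicate 1. The side taken at days 3 and 4 rests on libraries that stand apart. WT day 3 and TLL day 4 resembled day 2 least among the later groups (mean r with TLL day 2 of 0.875 and 0.882, against 0.967 for both WT day 4 and TLL day 3). TLL day 3 was closer to WT day 4 (mean r 0.971) than to TLL day 4 (0.919), and WT day 3 closer to TLL day 4 (0.910) than to WT day 4 (0.876). An exchange of labels between groups of days 3 and 4 was not tested, and no strain difference at day 3 or day 4 can be had without them.

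Genes higher in TLL at day 2 were largely genes that rose with time, read in each strain separately. From WT day 1 to WT day 4, which share no library with the day 2 comparison, 586 of the 786 (74.6%) rose and 24 (3.05%) fell, where 29.4% of all genes rose and 21.3% fell. Their median log2 change over that time was 1.08, against 0.06 over all genes, and 701 of them (89.2%) changed upwards, called or not, against 52.9% of all genes. From TLL day 1 to TLL day 3, 622 (79.1%) rose and 18 (2.29%) fell, where 34.0% and 20.6% of all genes did. From WT day 1 to WT day 3 the share that rose was 52.8%, and from TLL day 1 to TLL day 4 it was 64.8%, where 29.8% and 39.0% of all genes rose. With either later group of each strain the share that rose thus exceeded that of all genes. Genes that rose in both strains were not counted. From WT day 1 to WT day 4 the share was 56.9% with the compared libraries alone and 46.0% with library weights, where 21.8% and 36.3% of all genes rose.

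Genes lower in TLL at day 2 were largely genes that fell with time. Of the 142, 96 (67.6%) fell from WT day 1 to WT day 4 and 25 (17.6%) rose, and their median log2 change was -1.46. From TLL day 1 to TLL day 3, 91 (64.1%) fell and 28 (19.7%) rose, with a median of -1.13. From WT day 1 to WT day 3, 85 (59.9%) fell, and from TLL day 1 to TLL day 4, 81 (57.0%), where 30.9% and 26.9% of all genes did. After median-of-ratios scaling, 86.2% of the genes called higher at day 2 rose from WT day 1 to day 4, where 27.7% of all genes did, and 63.7% of those called lower fell, where 26.1% did. All these comparisons share 1 estimate of the residual spread per gene, so a gene with little spread passes more readily in each of them. Both time comparisons contain day 1 libraries, whose replicates differed most, with a median SD per gene of 0.33 in WT and 0.29 in TLL on the log2 scale, against 0.17 and 0.19 at day 2.

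**Figure D5:**
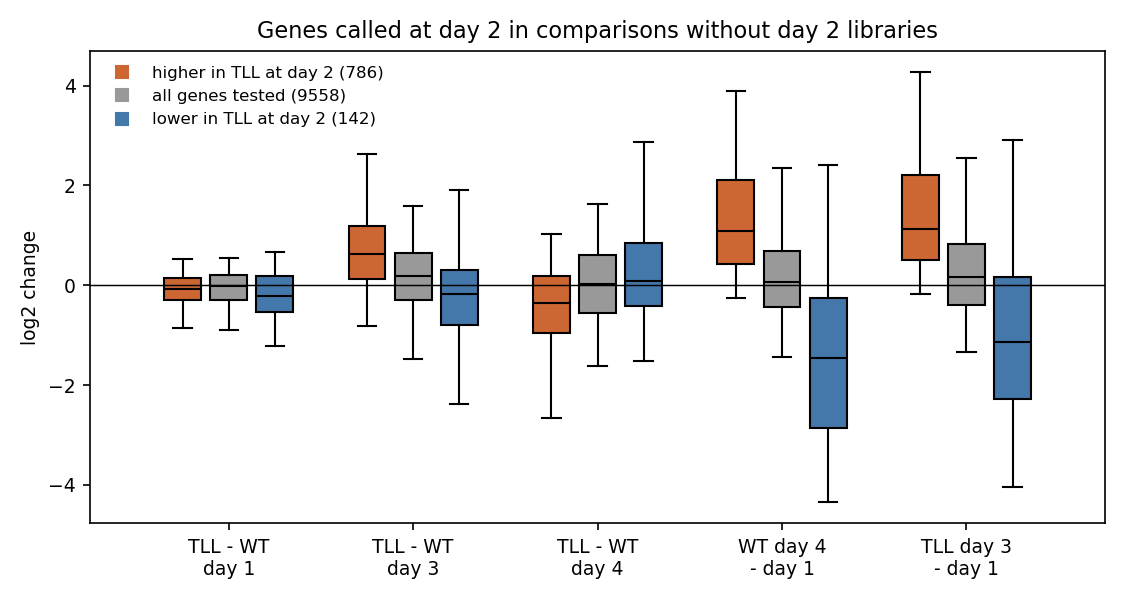
Log2 changes in 5 comparisons that contain no day 2 library, for genes called higher in TLL at day 2 (786), all genes tested (9558) and genes called lower in TLL at day 2 (142). Boxes span the quartiles with the median as a line, and whiskers reach the 5th and 95th percentiles over genes; genes higher at day 2 have medians of 1.08 from WT day 1 to day 4 and 0.63 between strains at day 3, but -0.36 between strains at day 4.

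The summed levels of both gene groups were read in every library. The 786 genes called higher held 6.16%, 7.31% and 7.07% of all TPM in the TLL day 2 libraries and 4.30%, 4.10% and 3.34% in the WT day 2 libraries. They held 2.19 ± 0.191% in WT day 1, 2.19 ± 0.121% in TLL day 1, 5.81 ± 0.0468% in TLL day 3 and 5.50 ± 0.233% in WT day 4 (SD, 3 libraries each). In WT day 3 and TLL day 4 they held less, 3.42 ± 0.00163% and 3.67 ± 0.116%. WT day 2 held 3.92 ± 0.505%. That was above both day 1 groups, below TLL day 3 and WT day 4, and within its own spread of WT day 3 and TLL day 4. In 407 of them (51.8%) TLL day 2 had the highest mean of the 8 groups, which was so for 18.2% of all genes tested. The choice of these genes by their day 2 levels bears on that share and on the sums of both day 2 groups. Nothing is read from these or from the place of WT day 2 among the groups. The same holds for the day 2 sums of the genes called lower. The 142 genes called lower held 0.676%, 0.580% and 0.542% in the TLL day 2 libraries and 1.20%, 1.33% and 1.43% in the WT day 2 libraries, and 2.27 ± 0.128% in WT day 1. They held 0.832 ± 0.0389% in TLL day 3 and 0.755 ± 0.0754% in WT day 4, but 1.91 ± 0.147% in WT day 3 and 1.52 ± 0.0658% in TLL day 4, where every library was above every WT day 2 library.

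The strain difference at day 2 was itself set against that of each other day. By limma it differed from the difference at day 1 in 911 genes (9.53% of those tested), from that at day 3 in 2588 (27.1%) and from that at day 4 in 3932 (41.1%). The comparison with day 1 rests on few libraries, since a fit on the 12 libraries of both days alone called 130 genes, and the 911 became 2132 without TLL day 1 replicate 3, 1767 without WT day 1 replicate 1 and 578, 553 and 489 without TLL day 1 replicate 2, TLL day 2 replicate 2 and WT day 2 replicate 3. NRRL3_02996 stood at 104, 109 and 136 TPM in TLL day 2 and at 45.0, 37.5 and 40.5 TPM in WT day 2. Its strain change at day 2 was not called (log2 change 1.48, SE 0.83, limma adjusted p = 0.2565). That SE takes in the spread within all 8 groups, WT day 1 included, and is not a measure of day 2 alone. At day 1 the gene was low in TLL, at 12.3, 10.2 and 21.6 TPM, and high in 2 of the 3 WT libraries, at 20.3, 977 and 759 TPM. WT day 1 replicate 1 was thus at the level of TLL for this gene. NRRL3_08061 was lower in TLL at day 2, with 34.7, 26.2 and 21.3 TPM against 55.3, 57.1 and 107 TPM in WT, while its day 1 means were 449 ± 55.4 TPM for TLL and 231 ± 175 TPM for WT (SD, n = 3 each). Neither gene passed in the fit on the 12 libraries alone, where their limma adjusted p were 0.105 and 0.0736.

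The genes named for the differences from days 3 and 4 were not called between the strains at day 2. No overlap of the strains at day 2 was a condition of naming each of them. Each SE takes in the spread within all 8 groups and is not a measure of day 2 alone. WT day 1 libraries lay far apart in NRRL3_08695 (2.03, 51.82 and 39.96 TPM) and NRRL3_01627 (5.26, 193.5 and 184.5 TPM). NRRL3_08695 stood at 4.93, 3.75 and 5.28 TPM in TLL and at 6.71, 6.89 and 7.15 TPM in WT at day 2, a change that was not called (log2 change -0.50, SE 0.62, limma adjusted p = 0.639), while WT day 3 held 828 ± 76.2 TPM and TLL day 3 held 6.44 ± 1.20 TPM (SD, n = 3 each). NRRL3_11759 was abundant in both strains at day 2, at 989, 1142 and 967 TPM in TLL and 1664, 1653 and 1233 TPM in WT. No call was made for it (log2 change -0.54, SE 0.38, limma adjusted p = 0.363), while its day 3 means were 5228 ± 496 TPM for TLL and 75.0 ± 7.10 TPM for WT (SD, n = 3 each). NRRL3_01627 stood at 35.3, 45.8 and 38.7 TPM in TLL and at 11.1, 10.4 and 6.19 TPM in WT at day 2, where it was not called (log2 change 2.03, SE 0.91, limma adjusted p = 0.161). At day 4 its TLL mean was 1.74 ± 0.331 TPM and its WT mean 221 ± 57.4 TPM (SD, n = 3 each). NRRL3_04013 was near 1 TPM or below it in most day 2 libraries, at 0.11, 0.16 and 0.65 TPM in TLL and 2.94, 2.01 and 1.04 TPM in WT. It was not called at day 2 either (log2 change -1.17, SE 0.59, limma adjusted p = 0.210), and it reached 1218 ± 244 TPM in TLL day 4 (SD, n = 3).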

How the data were processed

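Hyphal RNA was turned into Illumina libraries, per the labels' protocols. The deposited table holds TPM per gene, computed by the authors, and 0 of its columns belonged to no sample. The submitters' processing notes name HISAT2, StringTie and Cufflinks without roles or versions, and the table's name refers to RSEM, so which tool made the values is not settled. Neither genome build nor annotation is stated in the sources used here. TPM is relative to each library's total, so a change of abundant genes shifts all others.

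Libraries were assigned by the names in the labels, and 0 pairs held identical values. Values were transformed to log2(TPM + 1), which understates changes of low genes. Genes with 1 TPM or more in 3 or more libraries entered limma 3.58.1 (R 4.3.3), with a mean for each of 8 groups, 16 residual degrees of freedom, a mean-variance trend, two-sided tests and Benjamini-Hochberg adjustment over 9558 genes. Single library values were compared with exact permutation tests. IDs were named by rule. These are the 2 largest changes each way at day 2 and 1 each way for each difference from another day, among called genes with 100 TPM or more in the highest group and no overlap at day 2. The comparison, its lists and the alternatives were chosen with earlier results of these data known. Simulated data were used to test the model. Plots used matplotlib 3.10.9 (Python 3.11.15).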

Additional observations from a re-analysis of the deposited data

Results flagged for a closer look

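The strain difference of all 10 named genes at day 2 differed from that of at least 1 other day by a limma test of the difference itself, at an adjusted p under 0.05. 6 of these genes were named for such a difference, and the others for their day 2 change, which enters every difference. All values are therefore descriptions of that choice. Of all genes tested, 9.53%, 27.1% and 41.1% differed from days 1, 3 and 4. Among genes called at day 2, 14.6% of the higher and 8.45% of the lower ones had no such difference called. All values are log2 differences, with the strain difference (TLL minus WT) of the other day subtracted from that of day 2. For NRRL3_01776 the difference was 2.19 against day 1 and 6.04 against day 4. For NRRL3_07276 it was 2.77 against day 1, -5.78 against day 3 and 7.65 against day 4, where TLL was lower at day 4 and higher on days 2 and 3. For NRRL3_10215 and NRRL3_10695 it was -3.70 and -3.87 against day 4. Against day 1, NRRL3_02996 differed by 5.55 and NRRL3_08061 by -2.54. NRRL3_08695 differed by 6.31 against day 3 and -3.10 against day 4, and NRRL3_11759 by -6.65 and -3.17. Against day 4, NRRL3_01627 differed by 8.35 and NRRL3_04013 by -10.26. Without WT day 1 replicate 1, which stood apart, the value for NRRL3_02996 was 7.33.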

How the results depend on the processing

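Counts of calls moved with the processing, and so did the side with more genes changed at least 2-fold, which was the lower side under both other scalings. In the 18 alternatives, 0 genes called higher at day 2 became called lower or the reverse, and the 10 named genes kept their sign in every alternative that gave a value. After median-of-ratios scaling 318 genes were higher and 234 lower, and 274 of the former rose from WT day 1 to 4, and quantile normalization gave 362, 283 and 293. Library weights, whose estimation stopped before its convergence tolerance, gave 4189, 1095 and 1925, and differences from days 1, 3 and 4 in 4724, 5687 and 6275 genes. Leaving WT day 3 and TLL day 4 out of the fit gave 428, 91 and 346, with 554 genes different from day 1 and no value for days 3 and 4. Without the 2 day 1 libraries that lay apart the counts were 2320, 485 and 1237, with 2942 genes different from day 1 and 4156 from day 3. The compared libraries alone gave 214 lower genes, 130 different from day 1 and 4106 from day 3. The spread of each gene is estimated over all libraries in a fit, so libraries of other days enter the day 2 p-values. The median log2 change at day 2 over all genes was 0.20 without those 2 day 1 libraries and 0.21 with library weights, against 0.19. The cause of these shifts in the counts was not tested. Leaving out 1 library gave 179 to 1123 higher and 61 to 162 lower genes, 161 to 811 higher genes that rose from WT day 1 to 4, and 489 to 2132, 2135 to 2463 and 3492 to 3711 genes different from days 1, 3 and 4. The share of higher genes that rose from WT day 1 to 4 ran from 46.0% (library weights, where 36.3% of all genes rose) to 89.9% (without WT day 2 replicate 3). With the replicate number as a block (replicate block) 805 genes were higher and 138 lower. Same-numbered day 2 libraries deviated from their group means with correlations of -0.18, -0.03 and -0.19, so the numbers were not taken to pair the libraries. The depth behind the values is unknown, and the 3 libraries per group limit what can be called.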
